A study of Mus musculus with 8 samples.

Results

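The TGF-beta, BMP and ID niche genes described here are 10 genes of one signalling pathway, Id1, Id2, Id3, Smad6, Smad7, Tgfb1, Tgfbr1, Tgfbr2, Acvrl1 and Inhba. They were chosen by name, with earlier results of these data known. All 10 were found by Ensembl gene ID among the 55414 rows of the count table. They passed the filter on low counts, with at least 24 counts in every library. RNA had been sequenced from mouse Kupffer cells, macrophages that live inside the liver sinusoids, sorted from WT C57BL/6J livers 2 h after an operation. The operation was either caecal ligation and puncture (CLP), which lets gut bacteria into the abdomen and serves as a model of sepsis, or sham surgery (Sham), with 4 libraries in each group. All mice were kept on chow under specific pathogen-free conditions and no other agent is named. The labels give neither sex, age nor the sort gate, nor whether each library came from a different animal; the p-values below cover only the spread between these samples, which may be technical.

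TGF-beta, the activins and the bone morphogenetic proteins (BMPs) are secreted dimers that bring together type I and type II receptor kinases on the receiving cell. The receptors phosphorylate SMAD proteins, which enter the nucleus and switch on target genes. Among those targets are Smad6 and Smad7, which feed back to block the receptors, and the Id genes. ID proteins carry a helix-loop-helix dimerisation domain without the basic region that touches DNA, so that they hold E proteins and related factors away from their sites. In mouse liver, signals of this family from the stellate and endothelial cells around the sinusoid take part in keeping Kupffer cell identity: Acvrl1 encodes ALK1, the receptor for the circulating ligands BMP9 and BMP10, and Id3 is needed for Kupffer cells to form.

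The pathway did not move as a block. After CLP, Id2 transcripts stood at 4.53 times the Sham level, Id1 at 0.389 times and Id3 did not pass the test. Both feedback inhibitors fell, Smad7 to 0.161 times and Smad6 to 0.448 times the Sham level. The ligand genes Tgfb1 and Inhba and the receptor gene Acvrl1 rose by a smaller factor, and the TGF-beta receptor genes Tgfbr1 and Tgfbr2 did not pass. Of the 10 genes, 4 rose and 3 fell at an adjusted p of 0.05 in edgeR's quasi-likelihood test (Benjamini-Hochberg), where 24.9% of the 14655 genes tested rose and 29.5% fell, 54.3% in either direction. The groups were fully separate in 8 of the 10, higher in 5 and lower in 3, against 49.5% of all genes tested (22.1% higher and 27.3% lower). So much of the transcriptome changed that the number of genes passing says little about these 10.

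Levels are given as CPM, read counts relative to the library total scaled by the trimmed mean of M-values (TMM), and libraries held 23311897 to 28724875 counts. The first principal component (76.7% of the variance) separated the groups, and the second (9.99%) set CLP replicate 1 apart within its group. Leaving it out changed the call of none of the 10 genes. The TMM factors were 0.801 to 0.837 in CLP and 1.16 to 1.28 in Sham, and scaling by total counts alone moved the log2 fold changes by a median of -0.555, those of the 10 genes by -0.562 to -0.552. The directions of rises smaller than that shift depend on this choice, and values under total counts are given beside the genes it touches. Kupffer cell markers were abundant in both groups: the 8 on the list summed to 28010 to 36340 CPM after CLP and 21300 to 27930 CPM after Sham. Of the 8, 2 rose and none fell, with 1 to 3 rising when each library was left out in turn. The 2 were Timd4 (log2 fold change 0.59 ± 0.17, SE; edgeR adjusted p = 0.0153) and Adgre1 (0.45 ± 0.14, edgeR adjusted p = 0.0192), named after their values were seen. Clec4f, a lectin found on Kupffer cells, had 7999 to 10150 CPM in CLP libraries and 6309 to 8022 CPM in Sham libraries and missed the threshold (log2 fold change 0.27 ± 0.13, SE; edgeR adjusted p = 0.0999). Cd5l, a secreted macrophage protein, did not pass either (0.28 ± 0.15, edgeR adjusted p = 0.133).

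Upstream sequences are shown for 3 genes whose transcripts behaved differently, Id2, which rose, Id3, which did not pass, and Smad6, which fell. Each is the 250 bases before the gene's start in RefSeq on GRCm38.p6, 5′ to 3′ on the gene's strand. The windows are chr12:25096093-25096342 on the minus strand for Id2, chr4:136143572-136143821 on the plus strand for Id3 and chr9:64022060-64022309 on the minus strand for Smad6. Capitals mark every match on either strand to GGCGCC, a GC-rich element bound by the BMP-activated SMADs, to the SMAD palindrome GTCTAGAC, to CAGAC, a short box bound by SMAD3 and SMAD4, and to CANNTG, the E-box bound by the E proteins that ID proteins sequester.
Id2: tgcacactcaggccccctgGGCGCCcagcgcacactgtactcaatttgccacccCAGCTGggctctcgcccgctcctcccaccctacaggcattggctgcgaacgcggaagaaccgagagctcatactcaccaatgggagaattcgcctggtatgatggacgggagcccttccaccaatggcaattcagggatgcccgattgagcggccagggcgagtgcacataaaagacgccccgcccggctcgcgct
Id3: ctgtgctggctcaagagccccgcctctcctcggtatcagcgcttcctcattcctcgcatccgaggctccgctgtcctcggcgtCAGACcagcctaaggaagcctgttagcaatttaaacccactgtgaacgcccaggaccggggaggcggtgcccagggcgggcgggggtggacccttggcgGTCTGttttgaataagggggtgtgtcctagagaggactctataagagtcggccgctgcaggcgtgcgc
Smad6: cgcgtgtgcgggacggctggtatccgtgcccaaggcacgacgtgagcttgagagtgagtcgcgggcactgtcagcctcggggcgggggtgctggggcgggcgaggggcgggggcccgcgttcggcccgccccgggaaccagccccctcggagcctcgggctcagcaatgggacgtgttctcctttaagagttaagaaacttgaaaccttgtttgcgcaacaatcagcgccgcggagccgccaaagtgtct
The Id2 window held 1 GGCGCC, at position -231 counted from the gene's start, and 1 CANNTG, at -196. The Id3 window held 2 matches to CAGAC, at -167 and -68, and none to the other motifs. In the Smad6 window none of these motifs occurred. No window of Id1, Smad7 or Acvrl1 was searched, so Smad6 was the only searched gene that fell. Whether the motifs go with the direction of change was not tested. Tgfbr1, which did not pass, also had a GGCGCC, at -233. Upstream of another start it had a CAGAC at -203 and a CANNTG at -238. Tgfbr2, which did not pass either, had a CAGAC at -160. The windows of Tgfb1 and Inhba, which rose, held no match to any of the motifs. Over 32536 distinct RefSeq windows of the same length, GGCGCC was found in 9.65%, GTCTAGAC in 0.169%, CAGAC in 42.2% and CANNTG in 66.2%, and the motifs do not overlap each other in the windows printed. A match is a description of the letters and not a measured site.

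Id2 (ENSMUSG00000020644, chromosome 12) encodes the ID protein best known from innate lymphoid cells, dendritic cells and natural killer cells. It had 457, 690.0, 461 and 696 CPM in CLP replicates 1 to 4, against 117, 144, 139 and 108 CPM in Sham replicates 1 to 4. The lowest CLP library was thus well above the highest Sham library, and within CLP the libraries fell into a lower pair, replicates 1 and 3, and a higher pair, replicates 2 and 4. The means were 576 ± 135 CPM after CLP and 127 ± 17.4 CPM after Sham (SD, n = 4 each), with a log2 fold change of 2.18 ± 0.18 (SE) and an edgeR adjusted p of 7.89e-06. With total counts the log2 fold change was 1.62.

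Id1 (ENSMUSG00000042745, chromosome 2), a direct target of BMP signalling in many cell types, had 32.5, 28.4, 23.4 and 19.1 CPM in CLP replicates 1 to 4, against 59.1, 71.4, 89.0 and 46.0 CPM in Sham replicates 1 to 4. Every CLP library lay below every Sham library. The means were 25.8 ± 5.84 CPM after CLP and 66.4 ± 18.3 CPM after Sham, a log2 fold change of -1.36 ± 0.22 (edgeR adjusted p = 4.27e-04). Id1 kept its direction and its call under all 16 alternatives run, with values between -1.92 and -1.19.

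Id3 (ENSMUSG00000007872, chromosome 4) was the most abundant of the 3 Id genes per exon length in Sham. It had 244, 214, 188 and 175 CPM in CLP replicates 1 to 4, against 231, 252, 242 and 179 CPM in Sham replicates 1 to 4. The groups overlapped over most of their range. The log2 fold change of -0.14 ± 0.15 did not pass (edgeR adjusted p = 0.449), but with total counts Id3 passed as lower (-0.69, edgeR adjusted p = 0.00149). The genes of at least 10 CPM whose log2 CPM over the 8 libraries, each centred on its Sham mean, lay nearest to that of Id3, out of 7924 compared, were Tbc1d2b, Dym and Lpcat4, at root mean square distances of 0.116, 0.119 and 0.119 on the log2 scale.

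**Figure D1:**
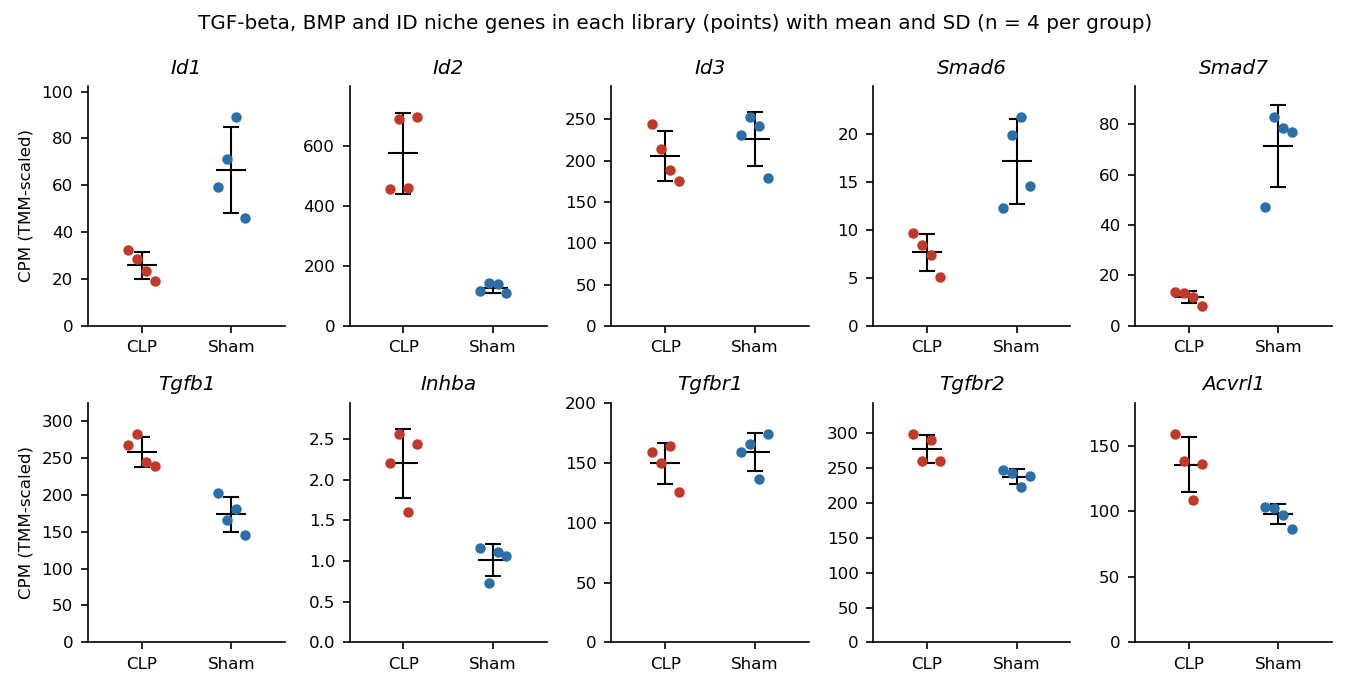
TMM-scaled CPM (vertical axes, linear, from 0) of the 10 genes in each library; red points are CLP, blue points Sham, and black marks give the mean and SD of 4 libraries. Id2 stands above Sham and Id1, Smad6 and Smad7 below Sham in all 4 CLP libraries, while the points of Id3 and Tgfbr1 overlap.

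Since a ratio of 2 genes within a library is free of library scaling, the Id genes were also compared with each other. For every Id3 count, CLP replicates 1 to 4 held 1.87, 3.22, 2.45 and 3.96 Id2 counts, against 0.506, 0.572, 0.574 and 0.605 in Sham replicates 1 to 4. The order of the pair was therefore reversed in all 4 CLP libraries. The mean log2 ratio was 1.47 ± 0.471 in CLP and -0.83 ± 0.109 in Sham (SD, n = 4), a difference of 2.30 (exact permutation test, two-sided, p = 0.0286, and 0.0286 adjusted over the 4 ratios tested, the smallest p that 4 against 4 allows). Id1 over Id3 lay at -3.01 ± 0.135 in CLP and -1.80 ± 0.244 in Sham on the log2 scale, a difference of -1.21 with the same exact permutation p of 0.0286 and no overlap. Id1 and Id2 transcripts thus changed unequally relative to Id3 whatever the scaling. How many other pairs of genes separate the groups in this way was not examined. Of all single genes tested, 49.5% did.

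**Figure D2:**
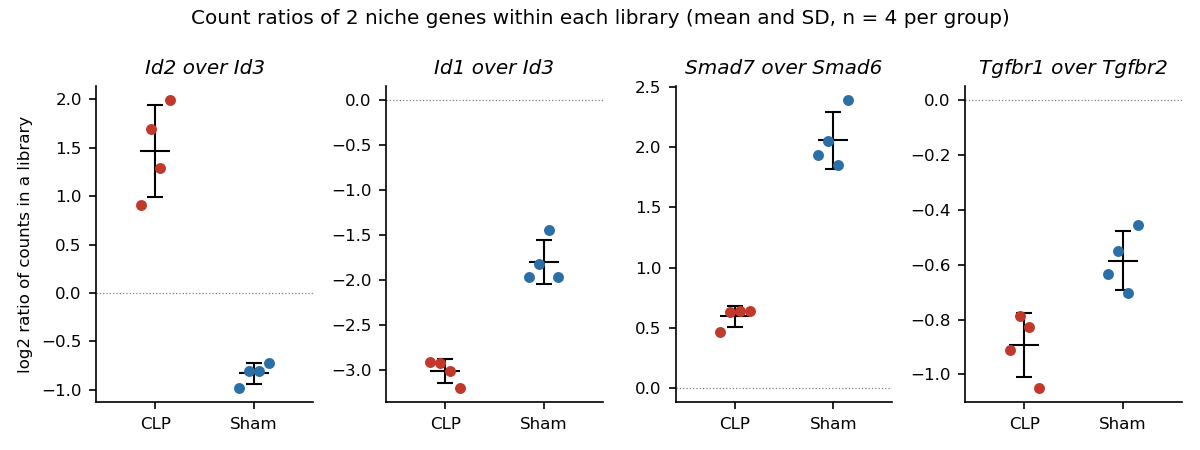
Log2 ratio of the counts of 2 genes in the same library (vertical axes) for 4 pairs; red points are CLP, blue points Sham, and black marks give the mean and SD of 4 libraries. In each pair the groups do not overlap, and Id2 over Id3 lies above 0 in CLP and below 0 in Sham.

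Smad7 (ENSMUSG00000025880, chromosome 18), the inhibitory SMAD that recruits ubiquitin ligases to the TGF-beta receptor, showed the largest fall of the 10 genes. It had 13.4, 12.99, 11.6 and 7.998 CPM in CLP replicates 1 to 4, against 47.1, 82.7, 78.6 and 76.8 CPM in Sham replicates 1 to 4. The CLP libraries were close to each other and the highest was far below the lowest Sham library, replicate 1, which itself lay apart from the other Sham libraries. The means were 11.5 ± 2.46 CPM after CLP and 71.3 ± 16.3 CPM after Sham, and the log2 fold change was -2.63 ± 0.21 (edgeR adjusted p = 7.25e-06). Without Sham replicate 1 it was -2.77, the lowest of the values of -2.77 to -2.49 found when each library was left out in turn.

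Smad6 (ENSMUSG00000036867, chromosome 9), the inhibitory SMAD that acts mainly on BMP receptors, had 9.70, 8.38, 7.42 and 5.12 CPM in CLP replicates 1 to 4, against 12.3, 19.9, 21.7 and 14.6 CPM in Sham replicates 1 to 4. The groups did not overlap. The log2 fold change was -1.16 ± 0.23 (edgeR adjusted p = 0.00167), from 660 counts in CLP and 2182 in Sham over all libraries. Smad7 fell further than Smad6: their log2 count ratio was 0.59 ± 0.086 in CLP and 2.06 ± 0.237 in Sham, a difference of -1.46 (exact permutation test, two-sided, p = 0.0286). In bulk samples, less RNA per cell and fewer cells that hold the RNA cannot be told apart, which applies to every level given here.

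Tgfb1 (ENSMUSG00000002603, chromosome 7), the main TGF-beta ligand of macrophages and platelets, had 268, 282, 244 and 239 CPM in CLP replicates 1 to 4, against 202, 166, 180.1 and 145 CPM in Sham replicates 1 to 4. The groups were separate, though the gap between the lowest CLP and the highest Sham library was narrow. The means were 258 ± 20.4 CPM after CLP and 173 ± 24.0 CPM after Sham, a log2 fold change of 0.58 ± 0.13 (edgeR adjusted p = 0.00276). With total counts it was 0.02 and did not pass (edgeR adjusted p = 0.877).

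Inhba (ENSMUSG00000041324, chromosome 13), which encodes the subunit of activin A, was scarce, with 53, 49, 35 and 50 counts in CLP replicates 1 to 4, against 38, 24, 33 and 35 counts in Sham replicates 1 to 4. On the CPM scale the means were 2.20 ± 0.427 in CLP and 1.02 ± 0.194 in Sham. The groups did not overlap in CPM, and the log2 fold change was 1.11 ± 0.26 (edgeR adjusted p = 0.00443). With total counts it was 0.55 and did not pass (edgeR adjusted p = 0.0896).

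Among the receptors, Acvrl1 (ENSMUSG00000000530, chromosome 15) had 159, 139, 109 and 136 CPM in CLP replicates 1 to 4, against 104, 102, 97.5 and 86.9 CPM in Sham replicates 1 to 4. CLP replicate 3 came within a few CPM of the Sham libraries and the others stood clear. The log2 fold change of 0.48 ± 0.13 passed (edgeR adjusted p = 0.00898), but with total counts it turned to -0.08 and did not (edgeR adjusted p = 0.598). The genes nearest to Acvrl1 by the same measure of distance were Gapdh, Ddx3y and Pou6f1, at 0.0764, 0.0953 and 0.0954.

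Tgfbr1 (ENSMUSG00000007613, chromosome 4) and Tgfbr2 (ENSMUSG00000032440, chromosome 9) encode the type I and type II receptors of TGF-beta. Tgfbr1 had 159, 150.3, 164 and 126 CPM in CLP replicates 1 to 4, against 159, 165, 137 and 174 CPM in Sham replicates 1 to 4. Its groups overlapped, and a log2 fold change of -0.09 ± 0.12 missed the threshold (edgeR adjusted p = 0.566). Tgfbr2 had 299, 259, 291 and 259 CPM in CLP replicates 1 to 4, against 247, 242, 222 and 239 CPM in Sham replicates 1 to 4. Its groups did not overlap, yet its log2 fold change of 0.22 ± 0.10 did not pass (edgeR adjusted p = 0.0903). It passed as higher with median-ratio size factors (0.28, edgeR adjusted p = 0.0462), with the GC correction and with DESeq2, and as lower with total counts (-0.33, edgeR adjusted p = 0.0125), where Tgfbr1 was lower too (-0.64, edgeR adjusted p = 6.79e-04). Relative to each other the receptors shifted by a small amount: the log2 count ratio of Tgfbr1 over Tgfbr2 was -0.89 ± 0.115 in CLP and -0.58 ± 0.107 in Sham, a difference of -0.31 (exact permutation test, two-sided, p = 0.0286), with no overlap.

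**Figure D3:**
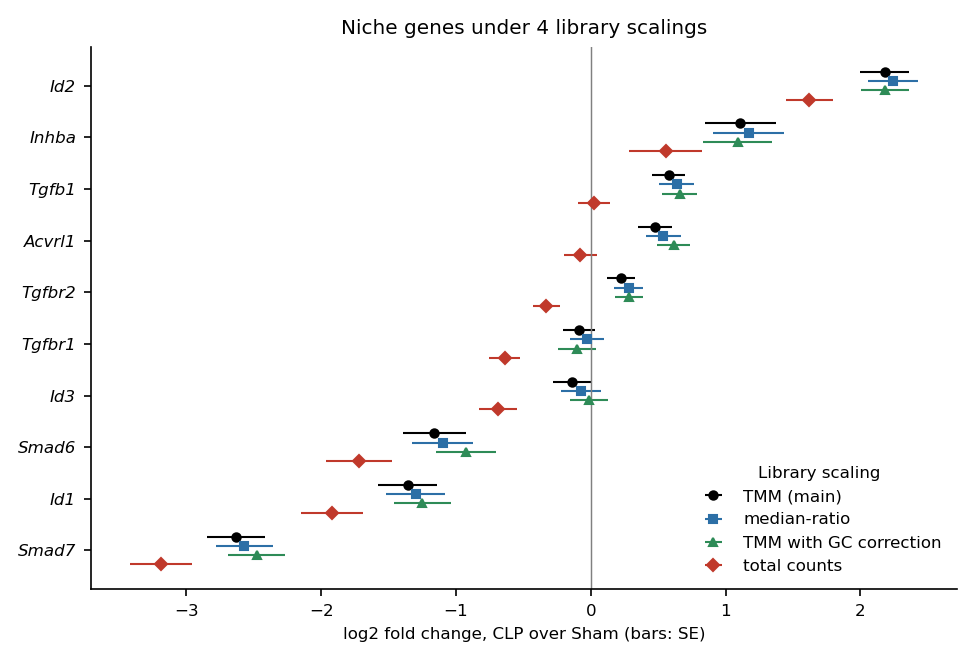
Log2 fold change of CLP over Sham (horizontal axis, bars are SE) of the 10 genes under 4 scalings of the libraries. The fall of Smad7, Id1 and Smad6 and the rise of Id2 lie on the same side of 0 under each scaling, whereas Acvrl1 and Tgfbr2 cross 0 with total counts and Tgfb1 comes to 0.02.

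To compare levels between genes, CPM were divided by the summed exon length of each gene in GENCODE M21. In CLP the order was Id2 at 236 ± 55.3 CPM per kb, Id3 at 115 ± 17.0, Tgfb1 at 51.2 ± 4.05, Tgfbr2 at 33.9 ± 2.53, Acvrl1 at 31.8 ± 4.86, Tgfbr1 at 22.9 ± 2.60, Id1 at 22.3 ± 5.03, Smad7 at 2.54 ± 0.543, Smad6 at 2.39 ± 0.602 and Inhba at 0.345 ± 0.0668. In Sham it was Id3 at 126 ± 18.3 CPM per kb, Id1 at 57.2 ± 15.8, Id2 at 52.1 ± 7.13, Tgfb1 at 34.4 ± 4.76, Tgfbr2 at 29.03 ± 1.33, Tgfbr1 at 24.3 ± 2.47, Acvrl1 at 22.9 ± 1.79, Smad7 at 15.8 ± 3.61, Smad6 at 5.35 ± 1.38 and Inhba at 0.159 ± 0.0304. Id1 thus went with Id2 in Sham and with Tgfbr1 in CLP. Neighbours whose libraries overlapped were Tgfbr2 with Acvrl1, Tgfbr1 with Id1 and Smad7 with Smad6 in CLP, and Id1 with Id2, Tgfb1 with Tgfbr2 and Tgfbr1 with Acvrl1 in Sham.

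**Figure D4:**
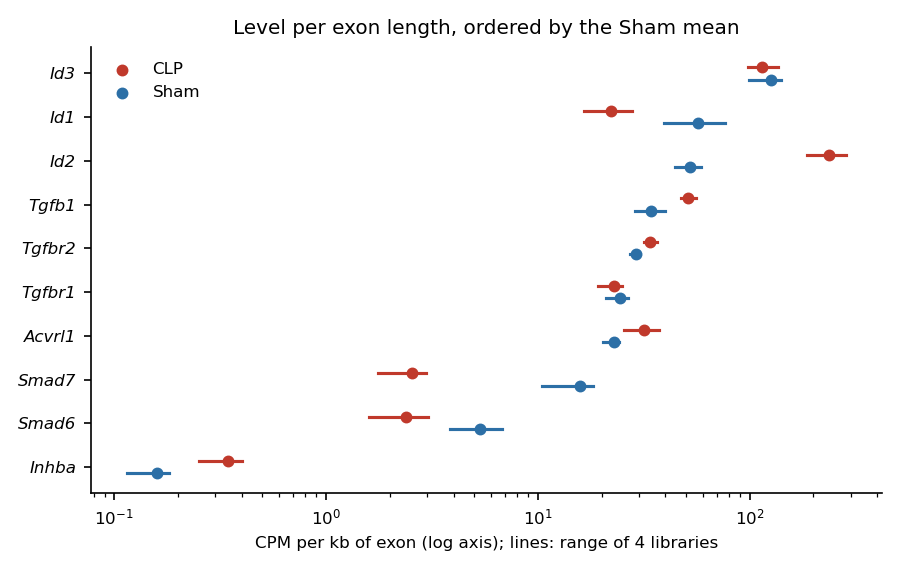
Level per exon length (horizontal log axis, CPM per kb) of the 10 genes, ordered by the Sham mean; points are means, lines span the 4 libraries of a group, red CLP and blue Sham. Id2 has the highest mean in CLP and Id3 in Sham, and Smad7 and Smad6 overlap in CLP only.

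The rest of the pathway was read from 7 lists of genes sorted by role, which hold 94 genes besides the 10, of which 73 were tested. Of these, 30 rose (41.1%) and 10 fell (13.7%), against 24.9% and 29.5% over all genes tested. Their log2 fold changes had a median of 0.32, against -0.04 over all genes tested. The lists too were chosen with earlier results of these data known.  Genes named below that are not among the most abundant or the most significant of their list complete counts of 5 or fewer and were chosen after their values were seen.

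Of 24 other ligands 13 were tested, 4 rose and none fell (median 0.53), with 3 to 5 rising and 0 to 2 falling when each library was left out in turn. Gdf15, a divergent family member secreted under stress, had 36.5 ± 21.9 CPM after CLP and 2.62 ± 1.55 CPM after Sham (log2 fold change 3.804 ± 0.52, edgeR adjusted p = 1.59e-04). Inhbb, a subunit of activin B, had 5.41, 16.6, 21.7 and 19.3 CPM in CLP replicates 1 to 4 and 3.29 to 6.17 CPM after Sham, so that CLP replicate 1 lay among the Sham libraries (1.74 ± 0.38, edgeR adjusted p = 0.00272). Tgfb3, another TGF-beta isoform, had 241, 148, 65.4 and 55.3 CPM in CLP replicates 1 to 4, against 66.2, 37.9, 17.1 and 47.3 CPM in Sham replicates 1 to 4 (1.596 ± 0.50, edgeR adjusted p = 0.0195). The groups of Tgfb3 overlapped and its call was lost without CLP replicate 1 (1.09, edgeR adjusted p = 0.0659) and with total counts (1.06, edgeR adjusted p = 0.0711). Inhbc, a hepatocyte-expressed activin subunit, rose by 0.71 ± 0.26 on the log2 scale (edgeR adjusted p = 0.0402), a call lost with total counts (0.155, edgeR adjusted p = 0.615), with the replicate block (edgeR adjusted p = 0.0682) and without CLP replicate 1, 2 or 3 or Sham replicate 1, 3 or 4 (edgeR adjusted p up to 0.107). Bmp6, the ligand that drives hepcidin, did not pass (0.64 ± 0.26, edgeR adjusted p = 0.0583), but did with median-ratio size factors, the GC correction and DESeq2 and without CLP replicate 1 or 2 (edgeR adjusted p = 0.0356 and 0.0451). Bmp10 and Gdf2, the genes of the ALK1 ligands BMP10 and BMP9, were at 1.05 and 2.26 CPM after CLP and 0.729 and 2.25 CPM after Sham and did not pass; they were picked out after their values were seen.

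Of 15 other receptors and co-receptors 11 were tested, 5 rose and 3 fell. Acvr1b, the type I activin receptor, had 81.3, 191, 217 and 206 CPM in CLP replicates 1 to 4, against 37.5 to 54.2 CPM in Sham libraries (1.89 ± 0.28, edgeR adjusted p = 2.30e-04). The type II activin receptors moved apart: Acvr2b had 1.76 ± 0.220 CPM after CLP and 7.54 ± 1.09 CPM after Sham (-2.09 ± 0.19, edgeR adjusted p = 1.26e-05), and Acvr2a had 30.5 ± 4.84 CPM after CLP and 21.8 ± 0.870 CPM after Sham (0.48 ± 0.13, edgeR adjusted p = 0.00793). Bmpr1a, a type I BMP receptor, fell by 0.65 ± 0.11 on the log2 scale and the BMP co-receptor Rgmb by 1.32 ± 0.13. Bmpr2, the type II BMP receptor that pairs with ALK1, rose by 0.34 ± 0.11 (edgeR adjusted p = 0.0189), a call lost without CLP replicate 2 or Sham replicate 2 (edgeR adjusted p up to 0.0561). The co-receptors Tgfbr3 and Eng rose by 0.81 and 0.64. With total counts Acvr2a and Bmpr2 were at -0.07 and -0.21, Tgfbr3 and Eng at 0.26 and 0.09, and none of them passed.

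Of the 6 other SMADs, 2 rose and 1 fell. Smad2, which carries TGF-beta and activin signals, had 133, 178, 202 and 164 CPM in CLP replicates 1 to 4, against 78.0, 68.9, 64.7 and 59.4 CPM in Sham replicates 1 to 4. These groups were well apart (1.32 ± 0.14, edgeR adjusted p = 3.53e-05). Smad9, a BMP-responsive SMAD, had 0.513 ± 0.152 CPM after CLP and 3.11 ± 1.05 CPM after Sham (-2.58 ± 0.35, edgeR adjusted p = 1.46e-04). Id1, Smad6 and Smad7 went in the same direction, while Id3 and Id4 did not pass. Smad5, which carries BMP signals, rose by 0.33 ± 0.11 (edgeR adjusted p = 0.0269), a call lost with total counts (-0.23, edgeR adjusted p = 0.0882), with the replicate block (edgeR adjusted p = 0.0504) and without CLP replicate 2, 3 or 4 or Sham replicate 2, 3 or 4 (edgeR adjusted p up to 0.0715). Smad1 and Smad3 did not pass (edgeR adjusted p = 0.543 and 0.378), and Smad4, the partner shared by all signalling SMADs, was at 61.7 ± 2.80 CPM after CLP and 60.3 ± 2.79 CPM after Sham. With total counts Smad4 passed as lower (-0.52, edgeR adjusted p = 3.92e-04).

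Among 16 tested genes that release latent TGF-beta or bind its ligands outside the cell, 11 rose and none fell (median 1.22). Of the 11, 6 averaged under 1 CPM after Sham. With each library left out in turn, 8 to 11 rose. The integrin chain Itgav, which with Itgb8 forms a receptor that activates latent TGF-beta, had 689 ± 98.9 CPM after CLP and 233 ± 33.0 CPM after Sham (1.56 ± 0.15). Itgb8 itself had 2.98 ± 1.22 CPM after CLP and 0.109 ± 0.0876 CPM after Sham (4.71 ± 0.59). Thbs1, thrombospondin 1, which also activates latent TGF-beta, had 55.2, 136, 91.8 and 223 CPM in CLP replicates 1 to 4 and 2.96 to 6.29 CPM after Sham (4.86 ± 0.44). Furin, the protease that cleaves the TGF-beta precursor, had 455 ± 75.2 CPM after CLP and 158 ± 9.77 CPM after Sham (1.52 ± 0.14), and Ltbp1, a latent TGF-beta binding protein, rose by 2.37 ± 0.33. The edgeR adjusted p-values of these 5 genes lay between 1.22e-05 and 1.52e-04.

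**Figure D5:**
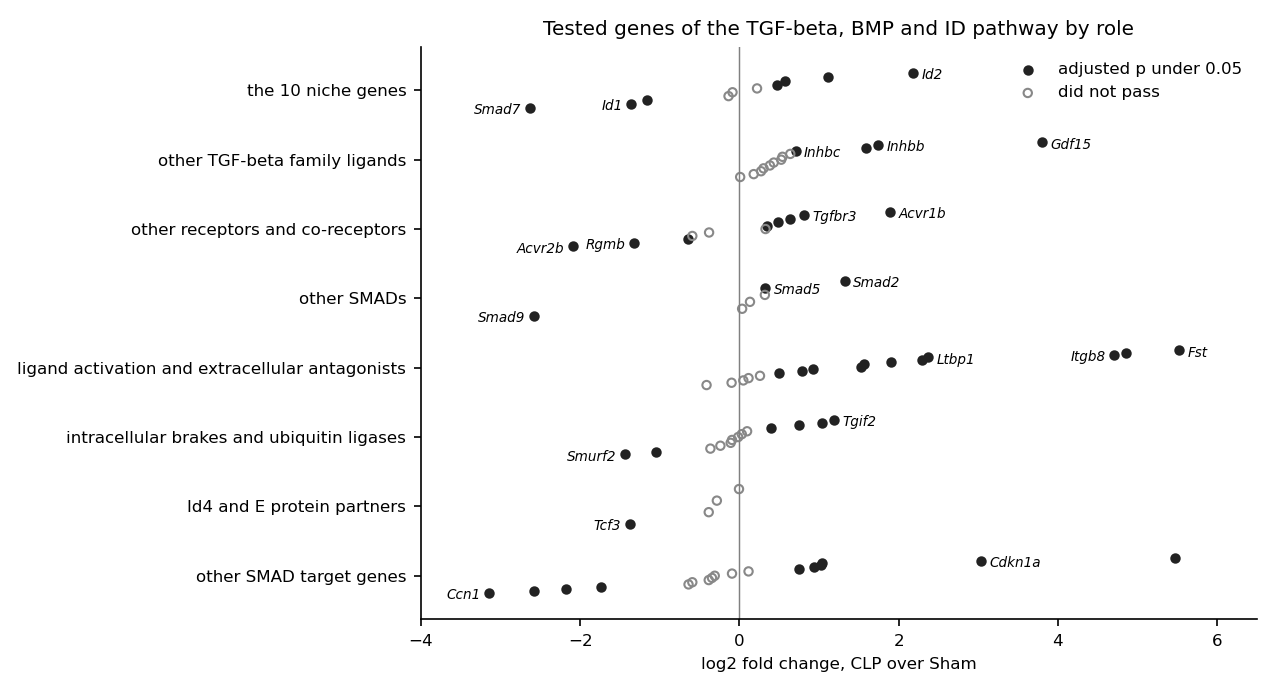
Log2 fold change of CLP over Sham (horizontal axis) of each tested gene in the lists by role (vertical axis); filled points passed an adjusted p of 0.05, open points did not, and some of the larger changes are named. In the list of ligand activation and extracellular antagonists every filled point lies right of 0, with a median of 1.22 over its 16 tested genes.

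Of 13 intracellular brakes and ubiquitin ligases, 4 rose and 2 fell, and these too went both ways. Skil, a SMAD corepressor that TGF-beta signalling induces, had 793 ± 136 CPM after CLP and 387 ± 40.1 CPM after Sham (1.03 ± 0.15, edgeR adjusted p = 1.78e-04). Its relative Ski fell by 1.05 ± 0.19 on the log2 scale (edgeR adjusted p = 0.00102). Smurf2, a ubiquitin ligase that works with SMAD7 on the TGF-beta receptor, had 37.7, 38.0, 38.7 and 33.6 CPM in CLP replicates 1 to 4, against 84.7, 106, 89.7 and 119 CPM in Sham replicates 1 to 4 (-1.44 ± 0.13, edgeR adjusted p = 9.98e-06). Smurf2 thus fell along with Smad7 and with no overlap. The corepressors Tgif1 and Tgif2 rose by 0.75 and 1.19 and the phosphatase Ppm1a by 0.40, and the ligase Wwp1 did not pass (edgeR adjusted p = 0.563). With total counts Tgif1 (0.20), Tgif2 (0.64) and Ppm1a (-0.15) did not pass, and Tgif2 did not pass without Sham replicate 4 (edgeR adjusted p = 0.0507).

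Of Id4 and the 3 E protein genes, all tested, Tcf3, which encodes E12 and E47, fell and none rose. It had 33.6, 20.9, 16.8 and 19.0 CPM in CLP replicates 1 to 4, against 53.9 to 62.7 CPM in Sham libraries (-1.38 ± 0.20, edgeR adjusted p = 1.88e-04). The other E protein genes, Tcf4 and Tcf12, did not pass (edgeR adjusted p = 0.056 and 0.975), although Tcf4 passed as lower without CLP replicate 1 (-0.36, edgeR adjusted p = 0.011) and both did with total counts. Id4 was under 1 CPM in both groups and passed as lower with total counts only (-0.93, edgeR adjusted p = 0.0489).

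Other genes known as SMAD targets split, with 6 of 17 higher and 4 lower (median -0.31). Cdkn1a, the cell cycle inhibitor p21, had 208 ± 84.9 CPM after CLP and 25.3 ± 3.11 CPM after Sham (3.04 ± 0.27, edgeR adjusted p = 1.17e-05), and Junb, an AP-1 subunit, rose by 0.94 ± 0.13. These genes also respond to signals other than SMADs. Hamp, the hepcidin gene, rose by 1.03 ± 0.40 with overlapping groups (edgeR adjusted p = 0.0483). It was at 6.69 CPM after CLP and 3.27 CPM after Sham. Its call lay close to the threshold, and its values under the alternatives are not given here. Bambi and Atoh8 did not pass (edgeR adjusted p = 0.0749 and 0.157). Hamp, Bambi and Atoh8 were picked out after their values were seen. The genes that fell, besides Smad9, were Ccn1, a matricellular protein (-3.15 ± 0.20), and the repressors Hes1 (-2.18 ± 0.28) and Hey1 (-1.74). Hes1 had 8.75 to 9.94 CPM in CLP libraries and 25.2 to 60.5 CPM in Sham libraries.

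Several of these genes are also expressed by other cells of the liver and blood, whose markers were present in the sorts. Of 12 markers of sinusoidal endothelial cells, which express Acvrl1, Smad6 and Id1 strongly, 5 (Cdh5, Kdr, Ptprb, Flt4 and Clec4g) rose and none fell, and their sum was 2471 to 2969 CPM in CLP libraries and 1706 to 2156 CPM in Sham libraries. Most of that sum was Cdh5, VE-cadherin, at 1914 ± 231 CPM after CLP and 1277 ± 140.2 CPM after Sham. Pecam1 and Kdr were far lower, at 120 and 24.4 CPM after CLP and 155 and 14.4 CPM after Sham. The sum thus mainly followed Cdh5, and whether Cdh5 RNA came from endothelial cells was not tested. Stab2, a scavenger receptor of these cells, was at 293 ± 11.3 CPM after CLP and 302 ± 13.9 CPM after Sham, with a log2 fold change of -0.05 ± 0.10 that missed the threshold (edgeR adjusted p = 0.698). With total counts 5 endothelial markers were lower and none was higher. Stab2 was then among those lower (-0.60, edgeR adjusted p = 2.47e-04), and Cdh5 (0.03, edgeR adjusted p = 0.81), Kdr, Ptprb, Flt4 and Clec4g did not pass. The rise of Clec4g was also lost without CLP replicate 2, 3 or 4 or Sham replicate 2, 3 or 4 (edgeR adjusted p up to 0.123). The part of endothelial RNA in the values of Acvrl1, Id1, Smad6 and Smad7 was not tested.

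Platelet markers, from cells rich in Tgfb1 and Thbs1, rose in 8 of 8 tested cases, with sums of 136 to 212 CPM in CLP libraries and 18.9 to 31.8 CPM in Sham libraries. Pf4 made up most of these sums, at 148 ± 36.4 CPM after CLP and 18.1 ± 5.84 CPM after Sham. Whether Pf4 RNA came from platelets was not tested. Neutrophil markers rose in 8 of 8 tested cases, with sums of 70.3 to 331 CPM in CLP libraries and 4.34 to 17.7 CPM in Sham libraries. In each of these lists 4 of the markers that rose were under 1 CPM after Sham, and Ly6g and Camp were at 0 in all Sham libraries. B cell markers rose in 6 of 7 tested cases and 1 fell, with sums of 22.3 to 36.4 CPM in CLP libraries and 9.32 to 14.5 CPM in Sham libraries. Of the 6 that rose, 5 averaged under 1 CPM after Sham, and the fall was lost without CLP replicate 2 or 3 or Sham replicate 1 or 4. Natural killer and T cell markers, from lineages in which Id2 is active, summed to 1.78 to 4.29 CPM in CLP libraries and 0.581 to 1.22 CPM in Sham libraries, and none passed the filter on low counts. The part of RNA from these cells in the rise of Id2, Tgfb1 and Inhba was not tested.

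Markers of hepatic stellate cells summed to 233 to 305 CPM in CLP libraries and 177 to 202 CPM in Sham libraries. Most of that came from the markers Ecm1 (122 CPM after CLP, 91.3 CPM after Sham) and Hgf (58.3 CPM after CLP, 37.5 CPM after Sham). Of the 11 tested, 4 rose and 1 fell, but 2 to 6 rose with each library left out in turn, 6 without CLP replicate 1 or 4 and 2 without Sham replicate 2 or 4, and the fall was kept only without CLP replicate 1. Hepatocyte markers summed to 4882 to 6181 CPM in CLP libraries and 3701 to 4881 CPM in Sham libraries. Most of that came from the markers Alb (2263 CPM after CLP, 1710 CPM after Sham) and Trf (2218 CPM after CLP, 1737 CPM after Sham). Of the 10 tested, 2 rose, a count of 4 without CLP replicate 1 or Sham replicate 2 and of 0 or 1 without any other library, and with total counts none rose and 5 fell. Whether the RNA of Ecm1 and Hgf came from stellate cells, or that of Alb and Trf from hepatocytes, was not tested. Monocyte markers summed to 225 to 369 CPM in CLP libraries and 173 to 292 CPM in Sham libraries, and 1 of 4 rose. Plac8, at 264 CPM after CLP and 205 CPM after Sham, made up most of that sum and did not pass (edgeR adjusted p = 0.132). Cholangiocyte markers averaged a sum of 8.19 CPM after CLP and 3.27 CPM after Sham, and erythroid markers one of 10.98 CPM after CLP and 5.47 CPM after Sham. The rise of 1 of 2 cholangiocyte markers was lost without CLP replicate 4, and that of 2 of 2 erythroid markers was kept for both only without Sham replicate 2.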

How the data were processed

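The deposited table holds whole read counts per Ensembl gene for 4 CLP and 4 Sham libraries. For the authors' counts, the submitters' processing notes name FastQC, STAR 2.7.10b, featureCounts and DESeq2 and the build mm39, without roles. The library kit is stranded, per the labels' protocols. The annotation release and strand setting of the counting: not given in the sources used here, so reads of antisense genes may not be told apart. Symbols, exon lengths and GC content came from GENCODE M21 (a symbol for 52081 IDs with 99.8% of counts), and upstream sequences from RefSeq on GRCm38.p6, used for sequence only.

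Genes passing filterByExpr were tested in edgeR 4.0.16 after TMM scaling (robust quasi-likelihood F-test, surgery as the only term; R 4.3.3), using Benjamini-Hochberg adjustment over 14655 genes. The SE is the absolute log2 fold change over the square root of F. The fit was checked on simulated counts. Of 50 genes changed at each size, edgeR recovered 8 at 1.5-fold, 27 at 2-fold and 47 at 4-fold, with 10 false calls among 142. Small changes can thus be missed by a gene that did not pass. Far fewer genes were changed there than passed in the data, so these shares may not carry over. Ratios used counts plus 0.5 and exact permutation over 70 splits.

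Named genes are the 10, in each pathway list up to 5 genes of at least 1 CPM with the smallest p and the 2 most abundant, the 2 most abundant markers of each cell type, and the 3 nearest genes to Id3 and to Acvrl1. The 10 genes and all lists were chosen with earlier results of these data known. Alternatives were other scalings, a GC correction, other filters, a replicate block, each library left out, DESeq2 1.42.0 and limma voom 3.58.1. A gene that the naming rule picks is not reported here.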

Additional observations from a re-analysis of the deposited data

Results flagged for a closer look

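Among the 28 groups of 4 libraries examined for the 10 genes and the 4 ratios, 2 held a library far from the other 3, where chance flags about 1 group in 20. Smad7 was at 47.1 CPM in Sham replicate 1, against 76.8 to 82.7 CPM in the other Sham libraries. The log2 ratio of Smad7 over Smad6 was 0.466 in CLP replicate 1, against 0.631 to 0.642 in the other CLP libraries.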

How the results depend on the processing

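Id1, Id2, Smad6 and Smad7 kept their direction and their call under all 16 alternatives. With 1 library left out in turn, 4 of the 10 genes rose and 3 fell each time, and over all genes 3244 to 4235 rose and 3716 to 4997 fell. The ratio differences then lay between 2.12 and 2.48 (Id2 over Id3), -1.27 and -1.09 (Id1 over Id3), -1.53 and -1.35 (Smad7 over Smad6) and -0.347 and -0.256 (Tgfbr1 over Tgfbr2). With total counts 1 of the 10 genes was higher and 6 were lower, and 1715 genes were higher and 8292 lower (17.1% of calls upward, against 45.8%). The log2 fold change reversed with total counts for Tgfbr2 (-0.331), Acvrl1 (-0.0777), Acvr2a (-0.0721), Bmpr2 (-0.209), Smad1 (-0.423), Smad3 (-0.239), Smad5 (-0.229), Ppm1a (-0.153), Clec4f (-0.277), Cd5l (-0.268), Bmp10 (-0.0454), Gdf2 (-0.548) and Smad4 (-0.521). It reversed for Tcf12 and Stab2 with median-ratio size factors (0.0564 and 0.0125) and DESeq2 (0.0566 and 0.0126), for Stab2 with the GC correction (0.0274), for Smad1 without CLP replicate 3 (range -0.0189 to 0.28 over the libraries left out) for Tcf12 without each of 5 libraries (range -0.126 to 0.069) and for Gdf2 without each of 4 (range -0.0868 to 0.197), and for Gdf2 (-0.0425) and Smad4 (-0.0216) without a low-count filter, none of which passed. Same-numbered libraries did not deviate together (r = 0.172, -0.125, 0.126 and -0.0853 for replicates 1 to 4). A replicate block gave 3491 genes higher and 4303 lower and changed no call among the 10. Without a low-count filter Tgfb3, Inhbc, Bmpr2 and Smad5 did not pass. The causes were not tested. Depth limits Inhba, with 24 to 53 counts a library.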
